A study of Mus musculus with 183 samples.

Results

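Transcripts that were depleted fastest after transcription was blocked were described in untreated mouse embryonic stem cells (mESCs) and followed through the other conditions of an RNA half-life experiment. The members are the 200 genes with the lowest ratio of CPM, which is counts scaled to equal library totals, at 120 min of actinomycin D to CPM in mock-treated cells, in clone 5F at day 0, among genes with a mean of at least 500 mock counts. Symbols that start with Hist, mt-, Snor, Zfp or Snhg were set aside, which left 7439 ranked genes out of the 53380 genes counted. Had these symbols been kept, 43 of 43 histone genes and 42 of 193 Zfp genes past the count filter would have entered the lowest 200. The ratios ran from 5.43% for *Dusp1* to 34.7% for *Yod1*. The last members, *Alg11*, *Rnf19a* and *Yod1*, had ratios of 34.67%, 34.70% and 34.71%, and the first genes left out, *Platr25*, *Dsel* and *Smg8*, had 34.73%, 34.78% and 34.81%. GENCODE M21 calls 187 members protein coding. The other 13 are long noncoding RNAs, unconfirmed gene models (TEC), a pseudogene and 1 gene absent from that release, so the set is not made of mRNAs alone.

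The cells were male mESCs grown in serum and leukaemia inhibitory factor (LIF). Clone 5F is labelled Rosa26Cre-ERT2/- Skiv2lfl/fl, meaning that 4-hydroxytamoxifen (4OHT) activates a Cre recombinase that removes part of *Skiv2l*. Clone 7E was made from cells lacking *Aven*, with a tagged *Skiv2l* whose conditional deletion works in the same way; its half-life labels give Aven-/-, a Rosa26 locus of Rosa26Cre-ERT2/BirA-V6 and, on both copies of Skiv2l, the 3xFLAG-Avi tag, without the floxed allele. Each clone was sampled at day 0 and day 4 of 4OHT, after vehicle (mock, 0 min) or 120, 240 or 360 min of actinomycin D. Groups held 3 libraries each, except clone 5F at day 0 after 120 min, which had 2. Each genotype is 1 clone, so clone and genotype cannot be told apart. The study's methods call the replicates technical, so p-values measure the spread between libraries and not between independent cultures.

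Actinomycin D stops RNA synthesis, so that the RNA still present after a given time is what decay has left. Short-lived mRNAs in mammalian cells typically encode transcription factors, signalling inhibitors and secreted ligands, whose levels must follow changes in transcription quickly. Many carry AU-rich elements in the 3′ UTR, which are repeats of AUUUA bound by proteins that recruit deadenylases. After deadenylation, XRN1 degrades mRNAs from the 5′ end, SKIV2L feeds them to the cytoplasmic exosome from the 3′ end, and MTR4 serves the nuclear exosome.

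AU-rich sites of this kind were present in some members. The nonamer TTATTTATT, a strict form of the AU-rich element, lay in the last 500 bases of 12 of the 187 protein-coding members. Sites from members with low ratios among those 12 are shown in mRNA sense, with the nonamer in capitals. The 27 bases of each site were read from the GRCm38 transcript models of GENCODE M21, all lie in the 3′ UTR and on the minus strand, and each was found at the same place in the RefSeq genome. These members encode the MAP kinase phosphatase *Dusp1*, the stress phosphatase subunit *Ppp1r15a*, the NF-κB inhibitor *Nfkbia*, the zinc finger genes *Zc3h10* and *Zbtb26*, *Tmem199* and *Cramp1l*.
Dusp1, chr17:26505871-26505897: tttttacctTTATTTATTtttgtgtag
Ppp1r15a, chr7:45522958-45522984: agtttcctaTTATTTATTtatttattt
Nfkbia, chr12:55489609-55489635: gaccacgttTTATTTATTgtgcttttg
Zc3h10, chr10:128542220-128542246: ttttaaagtTTATTTATTtactaatgg
Tmem199, chr11:78507073-78507099: tgaaagatgTTATTTATTcaataaata
Cramp1l, chr17:24961352-24961378: taaattacaTTATTTATTctttaccaa
Zbtb26, chr2:37432410-37432436: aaattactgTTATTTATTtattattta

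Libraries held between 24440935 and 34114250 counts in genes. *Skiv2l* had 147 to 148 CPM in the mock libraries of clone 5F at day 0 and 132 to 153 CPM in those labelled day 4, so its whole-gene count was not lower there. In clone 7E *Skiv2l* went from 31.2 to 36.1 CPM at day 0 to 12.4 to 13.8 CPM at day 4, and *Aven* had at most 3.0 CPM against at least 32.1 CPM in clone 5F. Counts per gene also include reads from exons that the deletion leaves in place. The 8 pluripotency markers ranged from 73.8 to 996 CPM in the mock libraries. Of 9 markers of differentiated or feeder cells, *Vim* (80.7 to 130 CPM) and *Pax6* (19.2 to 52.1 CPM) were the 2 best covered, and *Afp* reached at most 0.219 CPM. *Gata6* and *Sox17*, markers of endoderm, had 9.0 to 14.3 CPM in clone 5F and 0.642 to 1.55 CPM in clone 7E, and their part in differences between the clones was not tested. The mock libraries of clone 7E at day 4 stood apart in their ERCC spike-ins: their ratio of gene to spike-in counts was 151 to 156, against 312 to 363 in the other mock libraries. In bulk samples such a ratio cannot tell fewer cells from less RNA per cell.

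The 20 lowest ratios began with that of *Dusp1*. It was followed by *Mir17hg* (7.84%), the host transcript of the miR-17-92 microRNA cluster, *Gm26917* (8.72%), the homeobox factor *Gbx2* (8.76%), the Mediator subunit *Med26* (9.55%), the ERK phosphatase *Dusp6* (10.6%), the secreted matrix protein *Ccn1* (11.0%) and *Socs3* (11.2%), the inhibitor of JAK-STAT signalling downstream of LIF. Next came *Csrnp1*, *Gpank1*, the cap methyltransferase *Cmtr2*, the interferon factor *Irf1*, *Sertad1*, the ligand *Bmp4*, the Notch target *Hes1*, *Kbtbd2*, the RPL3 methyltransferase *Mettl18*, *Jrk*, the receptor tyrosine kinase inhibitor *Spry1* and *Dleu2*, a noncoding host of microRNAs, with ratios from 11.2% to 14.4%. The members were chosen by these ratios, which are given as a description. CPM is relative to the RNA pool that remains, which itself shrinks. Counts were therefore also scaled to the spike-ins, and the share left in percent of mock is on that scale from here on: the scaling factors were 64.9%, 53.1% and 43.8% of the mock value at 120, 240 and 360 min.

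In clone 5F at day 0 the members had a median of 17.2% of their mock level left at 120 min, 7.92% at 240 min and 4.92% at 360 min, against 62.5%, 50.6% and 42.0% over all ranked genes. The 120 min value was fixed by the choice of members. The 240 and 360 min values are not free of it either, since they are divided by the mock libraries that the choice used. In the series that the choice did not use, the members' medians at 120 min were 18.4% in clone 7E at day 0, 17.5% in clone 5F at day 4 and 19.0% in clone 7E at day 4. All ranked genes had 62.6%, 60.8% and 59.9% left in the same groups. An exponential fall between mock and 120 min would give the members a median half-life of 49.1 min, 47.7 min and 50.2 min in these series, and all ranked genes 177 min, 167 min and 163 min. Counts were scaled across all series within each time point, with 1 spike-in factor per time, so these values cannot rank the series. Libraries of a group lay close together after this scaling. In clone 7E the members' median at 120 min ranged from 17.9% to 18.3% over the 3 libraries at day 0 and from 18.6% to 19.3% at day 4. The scaling evens out libraries within a time point, so these ranges leave out differences in RNA amount. The ratios of gene to spike-in counts in these libraries ran from 195 to 229 and from 92.0 to 119. Together the members made up 2.99% to 4.16% of all gene counts in mock libraries and 0.464% to 0.562% at 120 min. Most of the mock share came from *Gm26917* and *Gm42418*, which GENCODE lists as long noncoding RNAs, and not from mRNAs. Mean mock levels of *Gm26917* ran from 16645 CPM in clone 7E at day 4 to 20522 CPM in clone 5F at day 4. Those of *Gm42418* ran from 2996 CPM in clone 5F at day 0 to 4425 CPM in clone 5F at day 4.

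**Figure D1:**
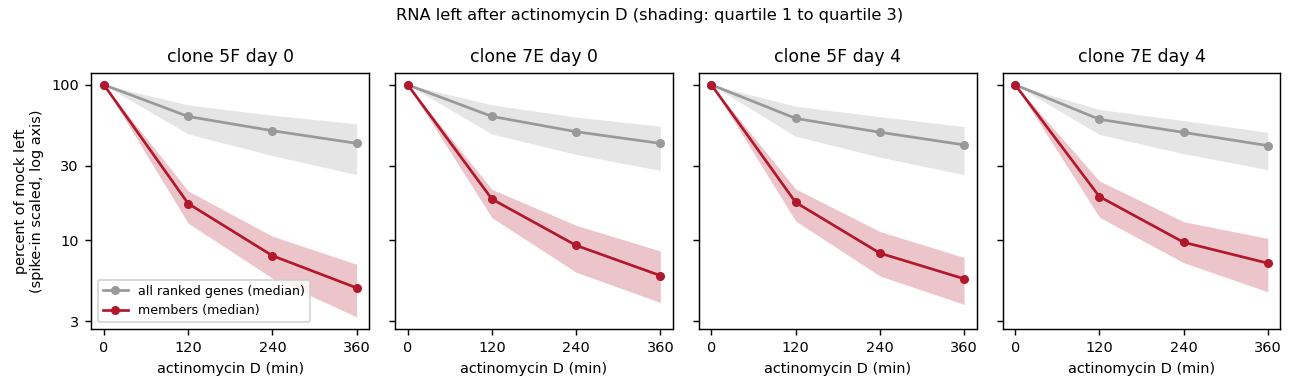
Percent of the mock level left (log axis, spike-in scaled) against minutes of actinomycin D in the 4 series; lines are medians over the 200 members or the 7439 ranked genes and shading runs from quartile 1 to quartile 3. The members' medians at 120 min sat between 17.2% and 19.0% in every series and those of all ranked genes between 59.9% and 62.6%.

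The fall was tested with edgeR on the 42 libraries that did not choose the members. In clone 7E at day 0, 200 of 200 members were lower at 120 min than in mock (Benjamini-Hochberg adjusted p under 0.05), where 78.8% of the 18038 genes tested were called lower. The count was also 200 of 200 in clone 5F at day 4, where 79.8% of all genes were lower, and in clone 7E at day 4, where 82.0% were. No member was higher, against 0.128%, 0.0776% and 0.0499% of all genes. Since most genes were called lower, the size of the fall separates the members better than the count: their median log2 change was -2.45, -2.52 and -2.39, beside -0.80, -0.81 and -0.80 over all genes tested. The range over the members in clone 7E at day 0 was from -5.01 to -1.69. With each library's own spike-ins the members' medians were -2.42, -2.57 and -2.15, beside -0.77, -0.85 and -0.56 over all genes.

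*Dusp1* (ENSMUSG00000024190.6, chr17:26505590-26562128, minus strand), which inactivates MAP kinases, had 384, 401 and 382 normalised read counts in the mock libraries of clone 7E at day 0 and 12.2, 18.6 and 16.0 at 120 min. All mock libraries lay far above all treated ones, with a log2 change of -4.63 ± 0.19 (SE, edgeR adjusted p = 3.08e-21). *Mir17hg* (chr14:115042879-115046727, plus strand) had 2263, 2099 and 1971 counts in mock and 95.8, 101 and 123 at 120 min, a log2 change of -4.31 ± 0.13. Unlike *Dusp1*, it then held nearly level, with 83.3, 119 and 115 counts at 240 min, before 47.2, 42.0 and 49.9 at 360 min. *Ccn1* (chr3:145646976-145649981) went from 980, 985 and 817 counts to 48.2, 53.5 and 50.5, and *Socs3* (chr11:117966079-117970047) from 3036, 3378 and 3139 to 231, 246 and 217. The log2 changes of *Ccn1* and *Socs3* were -4.19 ± 0.12 and -3.78 ± 0.09, which over the first 120 min corresponds to half-lives of 28.6 min and 31.7 min.

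At the other end of the members, *Yod1*, a deubiquitinase, had 513, 527 and 465 counts in mock and 133, 145 and 188 at 120 min in clone 7E at day 0. Its 31.0% left was the largest share among the members there, followed by *Nsrp1* (28.2%), the pseudogene *Gm10033* (28.0%), *2810021J22Rik* (27.2%) and *Lmln* (26.8%). Every member thus lay below the lower quartile of all ranked genes, 48.2%.

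**Figure D2:**
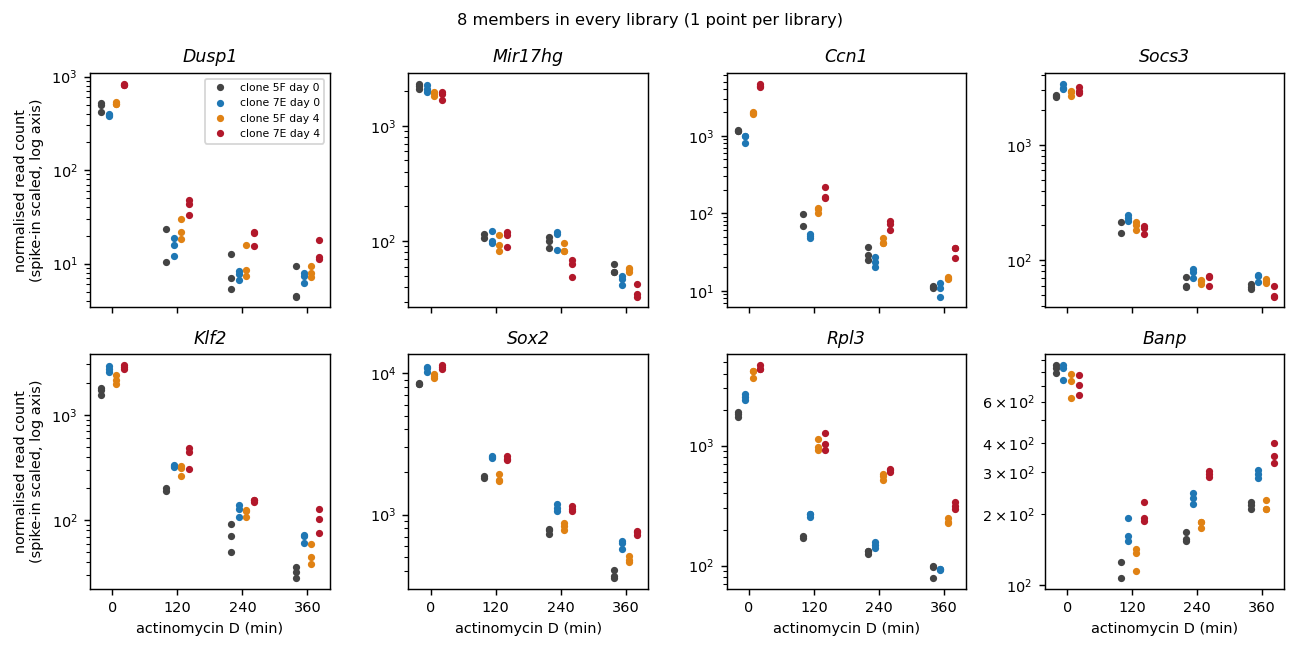
Normalised read counts (spike-in scaled, log axis) of 8 members against minutes of actinomycin D, 1 point per library, coloured by clone and day. *Dusp1* fell from 384 to 401 counts to 12.2 to 18.6 in clone 7E at day 0, *Ccn1* and *Rpl3* started higher at day 4, and *Banp* was higher at 360 than at 120 min in each series.

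The members were read against lists of genes by role; members are 2.69% of the ranked genes. Signalling feedback and target genes had 14 members among the 26 that passed the count filter (53.8%): *Bhlhe40*, *Dusp1*, *Dusp6*, *Errfi1*, *Hes1*, *Nfkbia*, *Nodal*, *Pim3*, *Sgk1*, *Smad7*, *Socs3*, *Spry1*, *Spry2* and *Spry4*. The most abundant of them were the kinase *Sgk1* with 501 CPM and 19.2% left at 120 min in clone 7E at day 0, and *Spry2*, *Spry4* and *Dusp6*, which restrain receptor tyrosine kinase and ERK signalling, with 12.4%, 9.87% and 8.07% left. Immediate early genes, which are transcribed within minutes of a stimulus, had 7 members of 13 (53.8%). Of these, *Ier2* had 15.8%, the zinc finger factor *Klf6* 18.7%, *Csrnp1* 7.12% and the matrix protein *Ccn2* 13.2% left.

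Pluripotency regulators gave 3 members of 19. *Klf2* had 2564, 2731 and 2892 counts in mock and 327, 318 and 331 at 120 min in clone 7E at day 0, a log2 change of -3.07 ± 0.15. *Sox2* stood near the threshold of the choice (33.8%), with 10262, 11002 and 10955 counts in mock and 2511, 2592 and 2572 at 120 min, a log2 change of -2.07 ± 0.06. *Myc* fell by 2.78 ± 0.22 on the log2 scale, and all 3 were lower in every treated library than in any mock library. Cell cycle and survival regulators gave 4 of 18, namely the cyclin *Ccnl1* (16.3% left), the APC/C inhibitor *Fbxo5* (14.3%), the pro-apoptotic *Bcl2l11* (26.4%) and *E2f3* (20.1%). Chromatin and transcription cofactors gave 3 of 25 (*Med26* 7.25%, *Cited2* 11.2%, *Sertad1* 8.84%) and RNA-binding and decay factors 2 of 21 (*Tob1* 16.8%, *Tob2* 18.2%), the antiproliferative proteins that bring deadenylases to mRNA. Of 16 targets of p53, 0 were members.

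In a contrast list of ribosomal protein and housekeeping genes, 2 of 11 were members, *Rpl3* (10.3% left) and *Gapdh* (11.9%), while the other 9 had 74.0% to 98.5% left. Their counts are uncertain. Only uniquely mapped reads were counted, both genes have many near-identical copies in the genome, and *Gapdh* was listed at 57.7 CPM where *Actb* had 3550 CPM. The same applies to the members *Rpl9* and *Rpl10*. *Gm26917* and *Gm42418* lie together at chr17:39843013-39848788, and RefSeq gives *Gm42418* as a synonym of a ribosomal RNA pseudogene. *Gm42418* scattered widely, with 2367 and 20198 counts in the 2 libraries at 120 min that chose the members. Without the 13 members that are not protein coding and these 4 multicopy genes, a choice made after seeing the data, 183 of 183 members were still lower at 120 min in the 3 tested series.

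The fall went on after 120 min. In clone 7E at day 0, 194 of 200 members were lower at 360 than at 120 min (65.6% of all genes tested), in clone 5F at day 4 195 (63.6%) and in clone 7E at day 4 196 (67.0%). Median log2 changes were -1.50, -1.58 and -1.37, beside -0.57, -0.54 and -0.57 over all genes. In clone 5F at day 0, 360 min could be compared with 240 min without the libraries of the choice. There 159 members were lower (34.4% of all genes, and 55.0% of those with a mean of at least 100 counts). With TMM, a scaling between libraries in edgeR that uses no spike-ins, this last count was 93 (11.2% of all genes). Among the largest late falls in clone 7E at day 0 were those of *Ccn2* (-3.21 ± 0.15), *Mad2l1bp* (-3.14 ± 0.21), which acts on the spindle checkpoint protein MAD2, and *Ddias* (-2.97 ± 0.14). *Ddias* was also among the 4 largest in clone 5F at day 4, with *Nodal* (-2.97 ± 0.13) and *Ccn1* (-2.91 ± 0.15). In clone 7E at day 4 the largest included *Ccn2* (-2.86 ± 0.12), *Ccn1* (-2.45 ± 0.13) and *Cited2* (-2.44 ± 0.21). In clone 5F at day 0 from 240 to 360 min they included *Ddias* (-1.79 ± 0.14), *Jade1* (-1.48 ± 0.07) and *Irf2bp2* (-1.47 ± 0.10).

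*Banp*, which encodes a DNA-binding nuclear protein, went the other way. It had 740, 829 and 857 counts in the mock libraries of clone 7E at day 0, then 161, 192 and 154 at 120 min, 233, 246 and 220 at 240 min, and 296, 284 and 308 at 360 min. Each library at 360 min was thus above each at 120 min. *Banp* was higher at 360 than at 120 min by 0.81 ± 0.10 on the log2 scale in clone 7E at day 0 (edgeR adjusted p = 3.31e-09), by 0.72 ± 0.10 in clone 5F at day 4 and by 0.84 ± 0.09 in clone 7E at day 4, where 1.03%, 0.71% and 0.333% of all genes were called higher. It also rose from 240 to 360 min in clone 5F at day 0 by 0.45 ± 0.10 (0.39 and adjusted p = 0.0632 with own spike-ins in edgeR), with *Vegfa* (0.67 ± 0.11) and *Nemp1* (0.45 ± 0.07), where 0.582% of all genes were higher. The angiogenic ligand *Vegfa* was called higher at 360 than at 120 min in clone 7E at day 0 by 0.24 ± 0.11 (edgeR adjusted p = 0.0476), a call that was lost when any of the 3 replicates was left out (adjusted p from 0.0756 to 0.229), with own spike-ins (0.296) and in DESeq2 (0.0511). *Gm42418* was called higher in clone 7E at day 4 (2.46 ± 0.66), where its 3 libraries at 360 min held 3823, 10796 and 23511 normalised counts. A further 5 members, *Iqcc*, *Yae1d1*, *Nemp1*, *Rilpl1* and ENSMUSG00000091562.3, were not called lower at 360 min in at least 1 of the series.

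When the same choice was made in the other series, the lowest 200 shared 162 genes with the members in clone 7E at day 0 (81.0% of each list), 149 in clone 5F at day 4 (74.5%) and 132 in clone 7E at day 4 (66.0%), and 118 genes were in all 4 lists. Of the members, 186, 185 and 177 passed the 500-count filter there, and 87.1%, 80.5% and 74.6% of these were in the list. A further part lay just beyond it: 185, 183 and 166 members were among the lowest 400. Leaving out single libraries moved the shares to 80.0% to 82.5%, 72.5% to 77.5% and 64.5% to 66.5%. The difference between the series was not tested.

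Before actinomycin D, members differed between day 0 and day 4 about as often as all genes tested. In the mock libraries of clone 7E, 26 of 200 members (13.0%) were lower at day 4, beside 12.0% of all genes. Higher were 30 members (15.0%), beside 14.6% of all genes. Genes with a mean of at least 100 counts were lower in 17.3% and higher in 16.6%. Without replicate 3 the lower count was 13, with 6.88% of all genes lower. *Ccn1* had 980, 985 and 817 counts at day 0 and 4669, 4360 and 4277 at day 4, a log2 change of 2.26 ± 0.10 (edgeR adjusted p = 9.55e-19). *Ccn2*, a matrix protein that like *Ccn1* is a known target of YAP, was higher by 1.49 ± 0.10, *Txnip*, an inhibitor of thioredoxin and of glucose uptake, by 1.40 ± 0.06, and *Klf6* by 1.35 ± 0.09. *Fgf15* was lower, from 800, 782 and 820 counts to 208, 216 and 265, a log2 change of -1.80 ± 0.12. The activin subunit *Inhbb* (-1.23 ± 0.07), *Gbx2* (-1.16 ± 0.13) and *Fgf4* (-0.93 ± 0.07), the autocrine ligand that drives ERK signalling in mESCs, were also lower. *Fgf4* had 5158, 5007 and 5111 counts at day 0 and 2747, 2755 and 2523 at day 4, with no overlap.

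These changes are relative to the total RNA of a library. Scaled to each library's own spike-ins, the median of all genes was 1.10 lower on the log2 scale at day 4, 189 members were called lower (82.5% of all genes) and 2 higher (1.16%), and *Ccn2* (0.39) and *Txnip* (0.31) were no longer called. In clone 5F, where the day 0 libraries chose the members, the mock levels are given as values alone. *Txnip* differed by 1.43 there, *Ccn1* by 0.75, *Ccn2* by 0.42, *Klf6* by 0.31, *Fgf15* by -0.45, *Inhbb* by -0.49, *Gbx2* by -0.34 and *Fgf4* by -0.26.

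**Figure D3:**
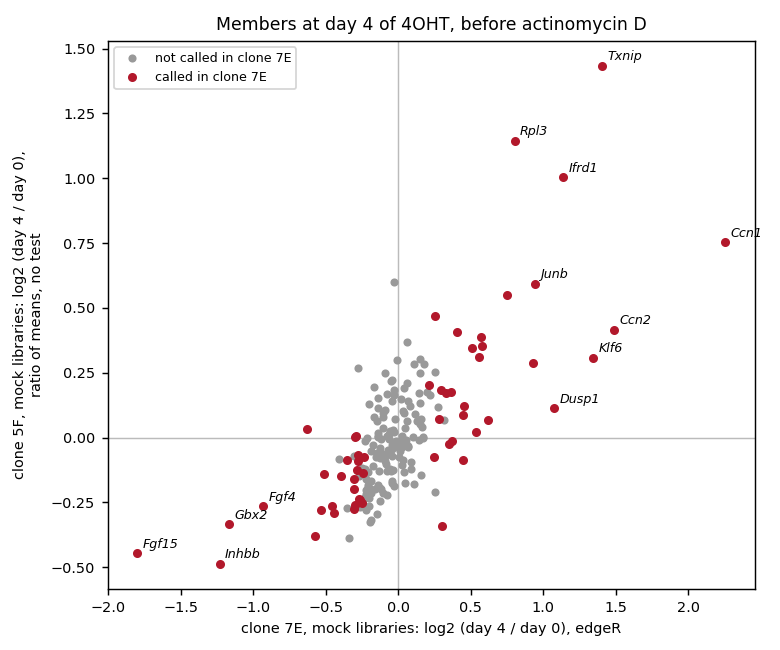
Log2 difference of mock levels between day 4 and day 0 for the 200 members, in clone 7E (x axis, edgeR) and clone 5F (y axis, ratio of means, no test); red points passed the adjusted threshold in clone 7E. *Ccn1* lies farthest right at 2.26 and *Fgf15* farthest left at -1.80.

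The fall itself was compared between day 4 and day 0 in clone 7E by the interaction of time and day, which compares how fast the members were depleted before and after 4OHT. Loss of *Skiv2l*, exposure to 4OHT and time in culture cannot be told apart in this comparison. Of the 200 members, 11 had more left at 120 min at day 4 (0.898% of all genes tested) and 2 had less (0.621%). With only genes of a mean of at least 100 counts, these background shares were 1.71% and 1.52%. The members' median difference was 0.11 on the log2 scale, beside -0.02 over all genes. The members were chosen by their fall at day 0, though in the other clone, so this median cannot show a change with the day. *Rpl3* had 2558, 2707 and 2402 counts in mock and 268, 270 and 254 at 120 min at day 0, and 4705, 4349 and 4329 and then 915, 1033 and 1283 at day 4. Its share left thus went from 10.3% to 24.1%, a difference of 1.22 ± 0.13 (edgeR adjusted p = 1.61e-08). In clone 5F, without a test, *Rpl3* had 9.52% left at day 0 and 25.1% at day 4. Its count is one of the uncertain ones named above.

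*Ifrd1*, a transcriptional coregulator, had 2896, 2762 and 3083 counts in mock at day 0 and 686, 622 and 613 at 120 min, and 6572, 6841 and 5821 and then 2546, 2303 and 2181 at day 4. Both its mock level (1.14 ± 0.08) and its share left (22.0% to 36.5%, a difference of 0.73 ± 0.11) were higher at day 4. *Xbp1*, the transcription factor of the unfolded protein response, had a lower mock level at day 4 (-0.31 ± 0.07) while its share left went from 15.7% to 25.6% (0.71 ± 0.11). *Ngrn* went from 23.3% to 36.5% (0.65 ± 0.13). The other 7 with more left were *Jrk*, *Lrrc14*, *Nemp1*, *Nhlrc3*, *Kcnk5*, *Stil* and *Lrig2*, with differences from 0.46 to 0.57. The AP-1 subunit *Junb* and *Irf2bp2* had less left at day 4, by -0.98 ± 0.19 and -0.49 ± 0.12. *Junb* had 1054, 1346 and 1178 counts in mock and 184, 215 and 175 at 120 min at day 0, and 2474, 2106 and 2294 and then 201, 181 and 176 at day 4: the mock libraries did not overlap between the days, whereas those at 120 min did.

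These calls were few and depended on the libraries and the scaling. With replicate 1, 2 or 3 left out, 4 or 5 members had more left (0.369% to 0.391% of all genes) and 0 or 1 less (0.0663% to 0.16%); *Rpl3*, *Ifrd1* and *Xbp1* passed each time. *Ngrn* lost its call without replicate 1 or 3 (adjusted p = 0.117 and 0.112), *Junb* without replicate 1 or 3 (0.0658 and 0.0532) and *Irf2bp2* when any of the 3 was left out (0.173 to 0.268). With each library's own spike-ins 20 members had more left (2.07% of all genes) and 0 less (0.0277%), the median of all genes being shifted to 0.19.

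**Figure D4:**
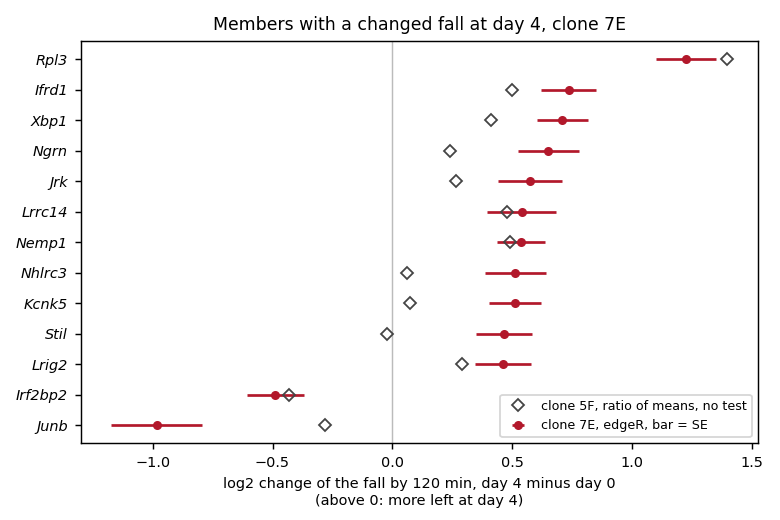
Log2 difference of the fall by 120 min between day 4 and day 0 for the 13 members called in clone 7E (red, edgeR estimate, bar is 1 SE) with the untested ratio of means in clone 5F (open diamonds); values above 0 mean more left at day 4. *Rpl3* lies highest at 1.22 in clone 7E and 1.40 in clone 5F, and *Junb* lowest at -0.98 and -0.28.

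In clone 5F the day 0 fall itself chose the members, so the same difference is given there as values alone. It was 0.50 for *Ifrd1*, 0.41 for *Xbp1*, 0.24 for *Ngrn*, -0.02 for *Stil* and -0.43 for *Irf2bp2*. The 2 clones were compared with each other at day 4. In mock libraries 25 members (12.5%) were lower in clone 7E than in clone 5F, beside 13.5% of all genes tested. Another 35 (17.5%) were higher, beside 14.5%, so both shares were near those of all genes. Genes with a mean of at least 100 counts were lower in 16.6% and higher in 20.1%. The lower count was 14 without replicate 2 (8.52% of all genes) and 13 without replicate 3 (8.47%), and the higher count was 23 without replicate 1 (10.2%). Lower were *Fgf15* (-1.67 ± 0.12), *Fgf4* (-1.05 ± 0.07), *Gbx2* (-1.01 ± 0.13) and the pluripotency-associated forkhead factor *Foxd3* (-0.87 ± 0.15), and higher were *Ccn1* (1.18 ± 0.10), *Junb* (1.17 ± 0.13), *Klf6* (1.05 ± 0.09) and *Irf2bp2* (1.01 ± 0.08). Scaled to each library's own spike-ins, the median of all genes was 1.20 lower in clone 7E, 193 members were lower (88.1% of all genes) and 0 higher (0.31%), and *Ccn1*, *Junb*, *Klf6* and *Irf2bp2* came out at -0.0097, -0.022, -0.14 and -0.18. The fall by 120 min differed between the clones at day 4 for 0 of 200 members in edgeR (0.0554% of all genes had less and 0.0166% more left in clone 7E). At an unadjusted p under 0.05, 45 members (22.5%) differed, against 6.22% of all genes. DESeq2 called 4 members as having more left in clone 7E (0.061% of all genes). The estimate was above 0 for 159 of the 200 members, with a median of 0.16, whereas 47.5% of all genes were above 0, with a median of -0.01. The members were chosen by their fall in clone 5F, though at day 0. That choice favours genes that fall more in clone 5F, so these counts cannot show a difference between the clones. Members are also not replicates.

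The members' gene structure and decay factor contacts were not used to choose them. The 187 protein-coding members had a median of 4 exons, with 10 over the 7326 ranked genes that have a coding transcript. Of the members 11 (5.88%) had a single exon, against 0.997%: *Cited2*, *Junb*, *Fam43a*, *Ier2*, *Tmem185b*, *Lpar6*, *Foxd3*, *Rhob*, *Irf2bp1*, *Sox2* and *Ddx28*. Genes named Hist had been set aside from both groups. Median coding lengths were 1314 and 1452 bases and median 3′ UTR lengths 1233 and 1046 bases. A coding sequence with the cysteine and histidine spacing of classical zinc fingers was found in 23 members (12.3%), such as *Klf2*, *Klf3*, *Klf6*, *Zbtb26* and *Zscan25*, against 2.54%, although genes named Zfp had been set aside.

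The nonamer shown above was held by 6.42% of the members in their last 500 bases and by 2.53% of the ranked genes. The members whose sites are printed had between 4.01% and 22.7% left at 120 min in clone 7E at day 0. The shorter TATTTAT, which the nonamer contains, was found in 44 members (23.5% against 13.3%), and its core ATTTA in 117 (62.6% against 54.4%). The Pumilio motif TGTANATA, where N is any base, was in 38 members (20.3% against 13.2%). Among the 100 members with the lowest ratios it was in 14 of 91 coding transcripts (15.4%). In the last 300 bases those 91 had 7.69%, against 10.3% of the ranked genes. The site of miR-294-3p, a microRNA of the mESC cluster, was in 16 members (8.56% against 5.74%). The 95% Clopper-Pearson interval of that share, 4.97% to 13.5%, covers counting error only and includes the share of the ranked genes. Its mature sequence in RefSeq (GRCm38.p6, chr7:3220691-3220712, plus strand) is shown because its seed, bases 2 to 8 in capitals, gives the searched site AGCACTT.
miR-294-3p: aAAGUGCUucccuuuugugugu
Only the mRNA strand was searched, and such a match is a run of letters and not a measured site. In whole 3′ UTRs, where longer UTRs hold more of any short motif, the shares were higher in both groups, with 49.7% against 29.5% for TATTTAT and 15.7% against 7.23% for the nonamer.

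CRAC, which sequences RNA fragments crosslinked by UV to a tagged protein, gave the relative binding of 142 members and 6196 ranked genes to MTR4, SKIV2L and XRN1. The 3 fractions add up to 1 for each mRNA, and since the authors pooled the libraries they carry no replicate error. The members' median fraction for SKIV2L was 0.185, against 0.285 over the ranked genes, with 0.432 against 0.349 for XRN1 and 0.357 against 0.303 for MTR4. SKIV2L was the largest of the 3 fractions for 8 members (5.63%), where the ranked genes had 29.4%. *Dusp1* had 0.657 for MTR4 and 0.0369 for SKIV2L, whereas *Socs3* had 0.791 and *Pim3* 0.722 for XRN1. The 8 members with SKIV2L in front were *Zscan25* (0.561), *Ccnl1* (0.540), *Jade1* (0.519), *Ifrd1* (0.490), *Myc* (0.474), *Arid4a* (0.464), *Rpl3* (0.420) and *Gadd45a* (0.391). Of these 8, *Ifrd1* and *Rpl3* are among the 11 of 200 members with more left at day 4 in clone 7E, and the others are not. The *Rpl3* count is uncertain, and a link between binding and the changed fall was not tested. The members were less abundant than the ranked genes in the authors' RNA-seq, with a median of 13.7 against 25.3 RPKM, and its part in the binding values was not tested.

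**Figure D5:**
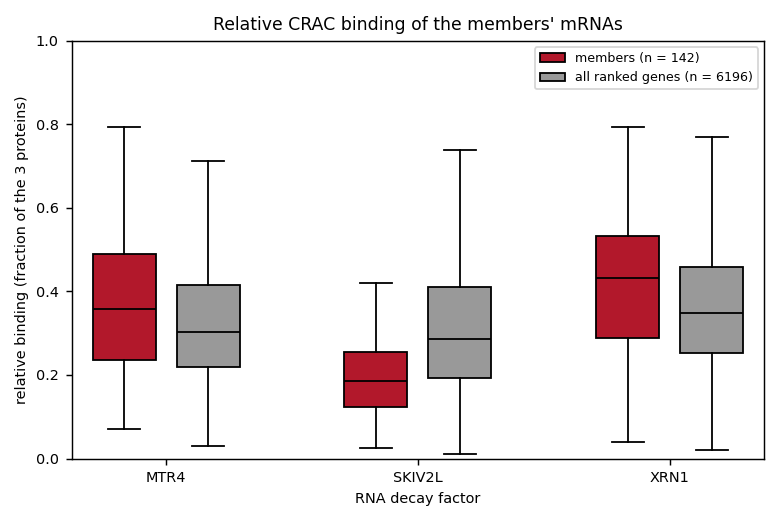
Relative CRAC binding of the members' mRNAs (red, n = 142) and of all ranked genes (grey, n = 6196) to MTR4, SKIV2L and XRN1, as fractions that add up to 1; boxes span the quartiles, lines are medians and whiskers reach the last value within 1.5 interquartile ranges. The members' SKIV2L box lies lower, with a median of 0.185 against 0.285.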

How the data were processed

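rRNA-depleted, unstranded libraries of the half-life experiment were sequenced and, by the authors, mapped with STAR to GRCm38 (mm10) with ERCC spike-ins, keeping unique mappers. The authors counted them per gene (Gencode M16) and deposited raw counts without normalisation. Reads shared by near-identical copies are therefore missing, and overlapping genes can share reads. The authors' deposited CRAC table gives relative binding as a ratio of pooled, scaled counts, and a median RPKM from RNA-seq of tagged lines. Deposited half-lives were not used. The columns of per-sample values all matched a sample, and 0 were left unused.

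The members and gene lists were chosen with earlier results of these data known. Normalised read counts are counts divided by DESeq2 size factors within a time point and then multiplied by the ERCC factor of that time, from the 34 of 92 ERCC sequences with a mean above 50; the paper writes of a division. Tests used edgeR 4.0.16 (quasi-likelihood, filterByExpr, Benjamini-Hochberg threshold 0.05) in R 4.3.3 on 42 of 47 libraries, leaving out the 5 that chose the members; DESeq2 1.42.0 was an alternative. In simulated data of 16946 genes, 100% of 200 genes changed by 1 log2 were recovered at 120 min in clone 7E day 0. For the change of the fall at day 4 it was 99%, with 8.76% of calls false, and a change of 0.5 was recovered in 44%. Only the mock and 120 min libraries of clone 7E were simulated, with no fall and with changed genes of at least 500 mean counts. Members such as *Dusp1* and *Yod1* had fewer counts at 120 min, so these shares do not give the members' recovery. Of 46 pairs of replicate libraries, 0 were identical, and all differed beyond counting noise (chi-square per gene at least 4.0).

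Named are the 20 lowest ratios, up to 4 members per list by mock CPM and per comparison and direction by log2 change, the 5 least depleted, 3 genes either side of the threshold and AU-rich sites, of which some are not reported here; other names were chosen after their values were seen. Features came from GENCODE M21, using the CRAC table's transcript where it lists one. Alternatives covered scaling, filters, tool, membership, replicate blocks and left-out replicates.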

Additional observations from a re-analysis of the deposited data

Results flagged for a closer look

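In clone 7E the fall by 120 min differed between day 4 and day 0, by the test of the interaction itself (edgeR, adjusted p under 0.05), for 13 members, of which 11 had more left at day 4 (0.898% of all genes) and 2 had less (0.621%). With 1 replicate left out these counts were 4 or 5 and 0 or 1. The largest differences were those of *Rpl3* (1.22 on the log2 scale), *Ifrd1* (0.73), *Xbp1* (0.71) and *Ngrn* (0.65), and, in the other direction, *Junb* (-0.98) and *Irf2bp2* (-0.49). *Ngrn*, *Junb* and *Irf2bp2* lost their calls in at least 1 of these fits. The 3 libraries of *Rpl3* at 120 min and day 4 (915, 1033 and 1283 normalised counts) lay above the 3 at day 0 (254 to 270).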

How the results depend on the processing

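The falls by 120 min and from 120 to 360 min kept their direction and stayed within 1.5 times of their counts under all alternatives run. The other calls depended on scaling, fit or libraries. The shares that follow are of the 200 members, with the share of all genes tested in brackets. Own spike-ins gave 94.5% lower (82.5%) and 1.0% higher (1.16%) for day 4 mock levels in clone 7E. Between clones they gave 96.5% lower (88.1%) and 0.0% higher (0.31%). For the changed fall 0.0% had less (0.0277%) and 10.0% more left (2.07%). Between clones 2.5% had more left (0.0887%). Mock gene to spike-in ratios were 151 to 156 in clone 7E at day 4 and 312 to 363 elsewhere. *Ccn1*, *Junb*, *Klf6* and *Irf2bp2* turned to -0.0097, -0.022, -0.14 and -0.18 between clones. TMM gave 46.5% lower (11.2%) from 240 to 360 min. Fitting only the groups compared gave 28.5% (19.4%) and 22.0% (19.4%) lower for the mock comparisons across days and clones. Membership from 2000 mock counts gave 2.5% with less (0.621%) and 3.0% with more left (0.898%) at day 4, and 0.5% with less between clones (0.0554%). No filter on low counts gave 2.0% with less left (0.563%). A mean of 100 counts gave 0.5% with more left between clones (0.0473%), and DESeq2 2.0% (0.061%). The cause was not tested. Without single replicates, day 4 mock levels gave 6.5% to 9.0% lower (6.88% to 7.78%) and 11.0% to 13.0% higher (9.61% to 10.5%). The changed fall gave 0.0% to 0.5% less (0.0663% to 0.16%) and 2.0% to 2.5% more (0.369% to 0.391%). The clones gave 6.5% to 9.0% lower (7.95% to 8.52%) and 11.5% to 15.0% higher (10.2% to 10.4%). Replicate numbers gave no clear pairing: 0 of 15 group pairs had every correlation over 0.1 (range -0.28 to 0.33), a check that cannot exclude weaker pairing. Same-numbered 120 min libraries correlated at 0.33, 0.07 and 0.20 between clones at day 4. Between the days in clone 7E they correlated at 0.17, 0.02 and 0.07. A replicate block gave 0.5% with more left between clones (0.0222%). A block within time points, added after seeing the data, gave 10.0% with more left (1.57%) for the changed fall and 0.5% (0.0277%) between clones. In whole 3′ UTRs the members' excess was 20.2 points for TATTTAT, 8.44 for the nonamer and 12.6 for the miR-294-3p site. Of 638 values of named members under alternatives, 614 kept direction and call, 20 lost the call and 4 reversed.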
